A study of Mus musculus with 8 samples.

Results

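The cerebral cortex and the diencephalon with the hypothalamus of the mouse embryo were compared at E12.5, 1 Agilent array for each tissue, which makes 2 of the 8 arrays of the series. Both tissues came from 3 embryos of the Sv129s6 strain, male and female mixed, with no transgene, deletion or treatment named in the labels. The RNA hybridized was a pool from 3 experiment sets, of which 50 ng was labelled with Cy3 and read on a single array. Neither tissue therefore has a replicate, no p-value is given, and the differences hold for these pools. The eye, dissected at the same stage and treated in the same way, is set beside them. The other 5 arrays of the series hold cultured embryonic stem cell derivatives and enter no comparison here. The labels do not say where the cortex was cut from the midline or the ventral telencephalon, or whether skin, pharyngeal roof or pituitary rudiment was left on the diencephalon.

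The forebrain vesicle splits into the telencephalon, whose dorsal wall makes the cerebral cortex, and the diencephalon, which makes the thalamus, the prethalamus and, ventrally, the hypothalamus. Position in this sheet is read from transcription factors: Emx, Dmrt and Lhx2 genes mark the dorsal telencephalon, while Nkx2-1, Rax and Foxb1 mark parts of the hypothalamus under the influence of Sonic hedgehog from the ventral midline. At this stage the cortex is mostly a dividing ventricular zone covered by its earliest glutamatergic neurons, whereas many hypothalamic neurons have already left the cycle.

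Levels are log2 of the background-subtracted signal relative to the 75th percentile of the array, so that 0 is that percentile, and a difference is the cortex level minus the diencephalon/hypothalamus level. A probe's level depends on its own sequence, so levels are compared between tissues for 1 gene and never between genes. A gene counts as detected where the brighter array was well above background, and as higher in a tissue where it was at least 2-fold (1 in log2) brighter there. Where the dim array was not well above background, a fold is printed with "at least", as the ratio to the dim signal itself or to the array's floor (its lowest signal still well above background), whichever is higher. The error beside a difference is the reading error of the scanner software, with a median of 0.20 in log2, or 1.15-fold. It leaves out the spread between embryos and dissections.

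Of 34490 genes read, 26415 were detected and 23114 were well above background on both arrays. A gene here is any name given to a probe, and 22559 of the 34490 are symbols in the RefSeq gene table. The shares of detected genes cover all such names. At the 2-fold rule 2227 detected genes were higher in cortex, which is 8.43% of those detected, and 3970 were higher in diencephalon/hypothalamus, which is 15%. At 4-fold the counts were 459 (1.74%) and 1477 (5.59%). At 2-fold the surplus on the diencephalon side lay mainly in dim genes. Of the 3970 genes, 1815 had a cortex signal that was not well above background, against 266 of the 2227, and with the dim array held at its floor the counts at 2-fold were 2227 and 2845. Among genes well above background on both arrays 1961 (8.48%) and 2155 (9.32%) were higher in cortex and in diencephalon/hypothalamus. At 4-fold a surplus remained among these genes, with 261 higher in cortex and 705 in diencephalon/hypothalamus. Of all 4-fold calls 23.7% lay on the cortex side, and the share ran from 21.0% with normexp background correction to 40.5% after scaling to the median. The split at 2-fold also rests on the scaling: 35.9% of the 2-fold calls lay on the cortex side here, 42.5% after quantile normalization, 47.6% with normexp background correction, 44.4% in the authors' deposited table and 64.8% after scaling to the median, which moves the median difference of all detected genes to 0.43. The diencephalon/hypothalamus array had 73.0% of its spots well above background and the cortex array 62.5%. Odorant and vomeronasal receptor genes, which neither tissue is known for, were above background for 13.2% of 1353 genes on the cortex array and for 20.2% on the diencephalon/hypothalamus array.

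The difference also moved with brightness. The median was -0.89 where the brighter level was under -6, 0.04 over all detected genes and 0.42 where the brighter level was above 4, and in that last class 279 genes were higher in cortex and 67 in diencephalon/hypothalamus. A difference of a bright gene that is near 0.4 is thus the level of its class, and counts for lists of bright genes are given again relative to genes of like brightness. The cortex array sat at column 2 and row 3 of its slide and the diencephalon/hypothalamus array at column 1 and row 3. The spike-in slope was within the range of the scanner software for cortex (0.962) and outside it for diencephalon/hypothalamus (0.900). Tissue, slide position and array therefore cannot be told apart. In these bulk samples fewer cells of a type and less RNA per cell cannot be told apart either.

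**Figure D1:**
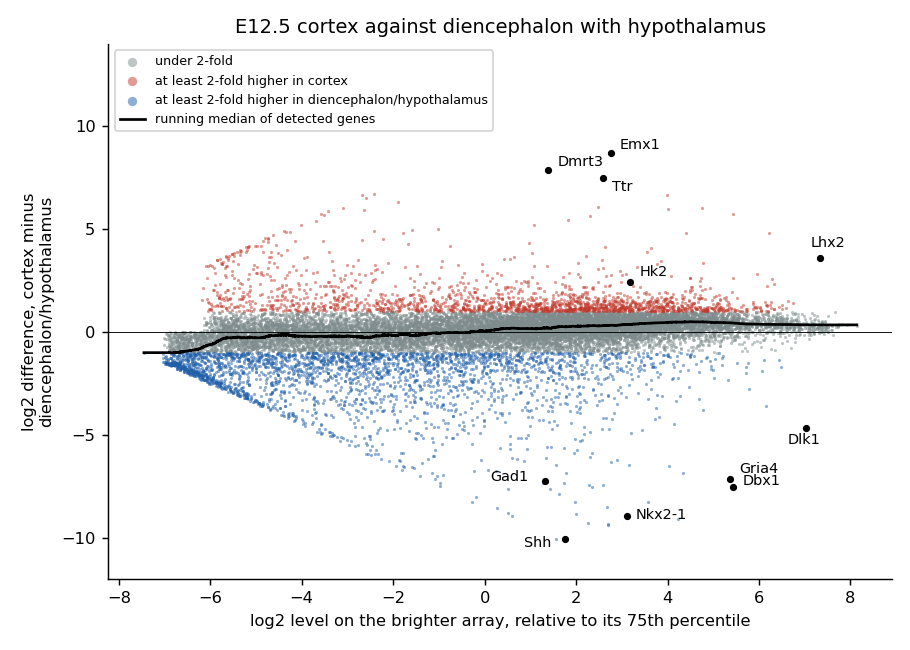
Each point is a detected gene with a RefSeq symbol. Its log2 level on the brighter array is on the x axis and the log2 difference, cortex minus diencephalon/hypothalamus, on the y axis. The black line is the running median of these genes. The line climbs from below 0 among dim genes to about 0.4 among bright genes, and named genes such as Emx1 (8.68) and Nkx2-1 (-8.97) lie far from it on either side.

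The cortex array carried the markers of its label. Of 20 transcription factors of dorsal telencephalic progenitors, all detected, 14 were higher in cortex and 2 in diencephalon/hypothalamus, with a median difference of 2.42 against 0.04 over all detected genes. Emx1, a homeobox gene of the dorsal telencephalon, had the largest difference of all named genes on this side. Its probe at chr6:85154062-85154121 (mm9) read 2.76 in cortex, -5.93 in diencephalon/hypothalamus and -5.95 in eye, a difference of 8.68 with a reading error of 0.26, or 411-fold. As for other genes dim on 1 array, the size rests on the background step, and the difference of Emx1 was 6.77 with normexp correction and 7.07 in the authors' deposited table. Its relative Emx2 read 3.77, 0.44 and -0.40, which is 10.0-fold. For both genes cortex was the highest of the 3 tissues, and the other tissues lay within 2-fold of each other. The antisense transcript Emx2os, whose probe lies 39.5 kb away, was 3.61-fold higher in cortex.

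The Dmrt genes encode DM-domain factors that act with Emx2 in patterning the cortex, and 3 of them followed the same order. Dmrt3 read 1.39 in cortex and -6.50 in diencephalon/hypothalamus, a 236-fold difference, and was not well above background in eye. Dmrta1 was 66.5-fold and Dmrta2 6.95-fold higher in cortex. Tfap2c, an AP-2 factor of cortical basal progenitors, read 4.00, -2.0 and 0.35 in cortex, diencephalon/hypothalamus and eye, a 63.9-fold difference between the brain tissues.

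Other factors of the list are shared with neighbouring forebrain territories, and their differences were smaller. Lhx2, a LIM homeobox factor that both cortex and eye need, was 12.3-fold higher in cortex, and the eye (4.34) lay closer to diencephalon/hypothalamus (3.72) than to cortex (7.34). Pax6 was 4.55-fold higher in cortex than in diencephalon/hypothalamus but brighter still in eye, at 2.36 against 1.77. Nr2f1 (COUP-TFI) differed by 0.16, which is within its reading error, and its relative Nr2f2 (COUP-TFII), which is known from ventral and caudal territories, was 8.80-fold higher in diencephalon/hypothalamus. Sall3 was the other member of the list on that side, at 6.89-fold. Neurog2, which differed by 0.88, stayed under 2-fold.

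The genes of cortical neurons were less uniform. Of 29 detected members 13 were higher in cortex and 2 in diencephalon/hypothalamus, with a median of 0.82. Of the factors that follow each other in the glutamatergic lineage, Neurod1 (0.82) and, on the progenitor list, Neurog2 (0.88) stayed under 2-fold, while Eomes, Tbr1, Neurod2 and Neurod6 passed it. Eomes (Tbr2), of intermediate progenitors, read 2.32 in cortex, -3.30 in diencephalon/hypothalamus and -6.28 in eye, a 49.2-fold difference. Tbr1, of early-born postmitotic neurons, read 4.76, -1.25 and -4.42, a 64.4-fold difference. Neurod6 was 43.4-fold and Neurod2 17.5-fold higher in cortex. Slc17a7, the vesicular glutamate transporter of mature cortical neurons, was dim in cortex (-3.58) and not well above background in either other tissue, which gives at least 14.7-fold. Nfib and Nfix, nuclear factor I genes, were 7.10-fold and 6.50-fold higher in cortex.

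Among factors of later cortical layers the differences named here were small. Bcl11b (Ctip2) was 2.86-fold and Fezf2 2.27-fold higher in cortex. The POU factors Pou3f1 and Pou3f2 were the 2 members higher in diencephalon/hypothalamus, by 2.25 and 1.12 in log2. Markers of Cajal-Retzius cells, the reelin-secreting neurons of the cortical surface, gave none of 10 higher in cortex and 5 higher in diencephalon/hypothalamus, with a median of -0.99. Reln (0.97) and Calb2 (0.92) came just short of 2-fold towards cortex. Trp73 differed by 0.14 at its brightest probe and by up to 6.64 at another of its 3 probes. The LIM factors Lhx5 and Lhx1, which also mark diencephalic neurons, were 18.8-fold and 14.3-fold higher in diencephalon/hypothalamus.

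The cortical hem and the choroid plexus form the dorsal midline of the telencephalon, and their genes fell on both sides. Of 24 detected members 8 were higher in cortex and 3 in diencephalon/hypothalamus, with a median of 0.01. Ttr, the transthyretin that choroid plexus epithelium secretes, read 2.60 in cortex, -4.87 in diencephalon/hypothalamus and 0.38 in eye, a 177-fold difference. Kcne2, a potassium channel subunit of the same epithelium, was 32.0-fold higher in cortex. The R-spondins, which strengthen Wnt signals, included Rspo1 at 17.2-fold and Rspo3 at 11.2-fold. The hem ligand Wnt3a was dim in cortex (-4.54) and at least 7.52-fold higher there, but with normexp correction its difference was 0.89. The other Wnt ligands of the list did not pass 2-fold: Wnt8b differed by -0.86 and Wnt5a by -0.97, and Wnt2b was not detected.

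Not all midline genes followed. Folr1 (0.75) and Kcnj13 (0.46), also of choroid plexus, stayed under 2-fold at the probes used, but the other probe of Kcnj13 gave 1.35. The midline genes Msx1 (-0.32) and Bmp4 (-0.45) were close to equal, while the roof-plate factor Lmx1a (-1.63) and the homeobox factor Otx2 (5.72-fold) were higher in diencephalon/hypothalamus, with -0.58 at the dimmer probe of Otx2. Genes of multiciliated cells, which the choroid plexus holds, were set beside this list after the data had been seen: of 20 detected, 8 were higher in cortex and 1 in diencephalon/hypothalamus. Ccno, which centriole amplification needs, read 1.07, -4.14 and -3.88 in cortex, diencephalon/hypothalamus and eye, a 37.0-fold difference. Gmnc, an early regulator of this cell type, was at least 29.1-fold, Cfap52 19.3-fold and Deup1 7.70-fold higher in cortex, but Mcidas differed by -0.79. Htr2c, a serotonin receptor that choroid plexus carries, was at least 29.9-fold higher in cortex.

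**Figure D2:**
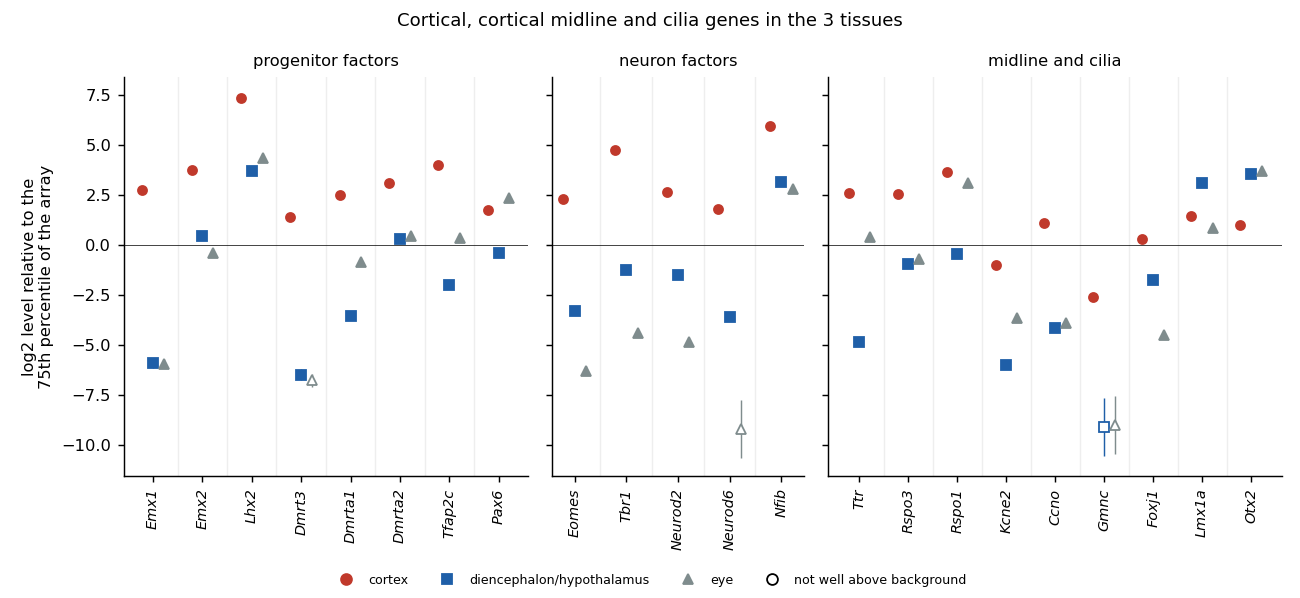
Log2 levels, relative to the 75th percentile of each array, of 22 genes in cortex (circles), diencephalon/hypothalamus (squares) and eye (triangles), with bars for the reading error and open symbols where a signal was not well above background. Cortex is the highest tissue for all but Pax6, Lmx1a and Otx2, and the levels of different genes are not to be compared.

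The diencephalon/hypothalamus array carried the markers of its label too. Of 38 hypothalamic transcription factors, all detected, 33 were higher in diencephalon/hypothalamus and 2 in cortex, with a median of -4.44. Under the stricter 4-fold rule 30 remained. For 25 of the 38 both arrays were well above background, and of these 20 were higher in diencephalon/hypothalamus and 2 in cortex. Nkx2-1, a homeobox factor that the ventral hypothalamus needs, read -5.86 in cortex and 3.11 in diencephalon/hypothalamus and was not well above background in eye, a difference of -8.97 with an error of 0.11, or 502-fold (-7.01 with normexp correction and -7.62 in the authors' deposited table). Its probe lies at chr12:57633119-57633178 (mm9), and the probe of Sfta3-ps 41.5 kb away gave the largest fold on this side that both arrays measured, 545-fold. Foxb1, a forkhead factor of the mammillary region, read 2.25 in diencephalon/hypothalamus and was not well above background in cortex or eye, which gives at least 371-fold. Dbx1, of ventricular zone progenitors, read 5.44 against -2.09 in cortex and -4.94 in eye, a 185-fold difference.

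Factors of single hypothalamic regions lay mostly in the same direction. Sim1, of the paraventricular region, was 19.6-fold higher, and Otp, which specifies the same neuroendocrine cells, was at least 10.8-fold higher than in cortex. Nr5a1 (SF-1) of the ventromedial nucleus was 13.9-fold higher and Fezf1 of the same territory 21.2-fold. The exceptions were Sox3, 3.09-fold higher in cortex, Lhx9, 5.51-fold higher in cortex, and Sim2 (-0.55), Arnt2 (-0.68) and Nr4a2 (-0.73) under 2-fold. The other probe of Sim2 gave -7.65, so that this gene is uncertain.

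Factors shared with the optic vesicle separated the 3 tissues differently from Nkx2-1. Rax read -3.32 in cortex, 3.16 in diencephalon/hypothalamus and 4.54 in eye, and Six6 read -5.09, 1.77 and 3.32. Both were lowest in cortex and highest in eye, with 89.1-fold and 116-fold between the brain tissues. Six3 was 51.9-fold higher than in cortex and within 0.25 in log2 of the eye, from 0.55 to 0.80. The lens crystallin gene Cryaa, of the eye alone, did not follow and read -5.45, -5.16 and 8.09.

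Many of these factors lie in pairs or clusters on the chromosome. The neighbours named here were chosen after their values were seen, so that their shared direction is a description and not a test. Hmx3 and Hmx2, homeobox genes whose probes lie 11.7 kb apart on chromosome 7, were at least 311-fold and at least 93.5-fold higher in diencephalon/hypothalamus. Nkx2-2 (13.5-fold, and -7.68 in log2 at its other probe) and Nkx2-4 (at least 111-fold) lie 99.0 kb apart. All 6 Irx genes, homeobox factors that share 2 clusters on chromosomes 8 and 13, were higher in diencephalon/hypothalamus, from 7.20-fold for Irx4 to at least 74.1-fold for Irx6, with a median of -4.64. Calls at 4-fold on this side make up 5.59% of all detected genes. Of the 5 Zic genes none was higher in diencephalon/hypothalamus, and Zic5 was 4.48-fold higher in cortex while Zic1 differed by 0.19. Zic2, the neighbour of Zic5, differed by 0.37, and Zic4, the neighbour of Zic1, by 0.82, both under 2-fold.

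Factors of the thalamus and prethalamus were higher in diencephalon/hypothalamus for 24 of 38 detected members and in cortex for 4, with a median of -2.19. The list shares members with the hypothalamic one. Among those it does not share, Lhx5 and Lhx1 are given above, and Gbx2, of the thalamic mantle, was at least 4.65-fold higher (-0.84 in log2 with normexp correction). Tcf7l2, also of the thalamus, stayed under 2-fold at the probe used (-0.89), but another of its 3 probes gave -1.46. The Onecut factors, added after the data had been seen, were all higher in diencephalon/hypothalamus: Onecut1 by at least 231-fold (-4.80 in log2 at its other probe), Onecut2 by 26.6-fold and Onecut3 by at least 39.7-fold.

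Neuropeptide genes were detected for 29 of 32, and 20 were higher in diencephalon/hypothalamus and none in cortex, with a median of -2.06. The size of this set rests on the background step: 13 of 28 passed with normexp correction (median -0.85) and 14 of 28 in the authors' deposited table (median -1.35). Trh, thyrotropin-releasing hormone, read 1.43 in diencephalon/hypothalamus, -2.82 in eye and not well above background in cortex, at least 202-fold. Cartpt was 184-fold, Pmch (melanin-concentrating hormone) 70.5-fold and Sst (somatostatin) 67.8-fold higher. Pomc, which arcuate progenitors share with the pituitary, read 0.67 in cortex and 2.79 in diencephalon/hypothalamus, a 4.35-fold difference. Several peptides of the adult hypothalamus stayed under 2-fold at this stage: Oxt differed by 0.09, Gnrh1 by 0.25 and Agrp by -0.86, while Vip was not well above background on any of the 3 arrays.

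The genes of inhibitory (GABA) neurons lay on the same side. Gad1 and Gad2, which make GABA, read -5.95 and -5.15 in cortex and 1.31 and 2.29 in diencephalon/hypothalamus, 153-fold and 173-fold higher. Slc32a1, which loads GABA into vesicles, was 90.5-fold higher, with -2.85 at its other probe. Over all genes of transmitter synthesis and transport, 12 of 17 detected were higher in diencephalon/hypothalamus and 2 in cortex. Slc17a6, the glutamate transporter of subcortical neurons, was 2.40-fold higher, from 1.27 to 2.54, and the enzymes Th and Ddc of dopamine synthesis were 11.5-fold and 8.85-fold higher. The 2 genes on the cortex side were Slc17a7 and Slc6a4 (1.09).

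Factors of the ventral telencephalon, where cortical interneurons arise, are also used in the prethalamus and hypothalamus. Of 26 detected members 20 were higher in diencephalon/hypothalamus and 2 in cortex, with a median of -2.46. Dlx1, Dlx2 and Dlx5 were 73.7-fold, 27.6-fold and 33.4-fold higher and Dlx6 at least 26.5-fold, while Dlx3 (-0.09) and Dlx4 (0.11), did not differ by 2-fold. Gsx1 was at least 233-fold higher but Gsx2, which marks the lateral ganglionic eminence, 4.16-fold. Lhx6, of migrating cortical interneurons, was well above background in cortex (0.36) and differed by -1.02 at its brightest probe and by up to -3.40 at another. Meis2 and Sox6 were 3.28-fold and 4.58-fold higher in cortex.

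**Figure D3:**
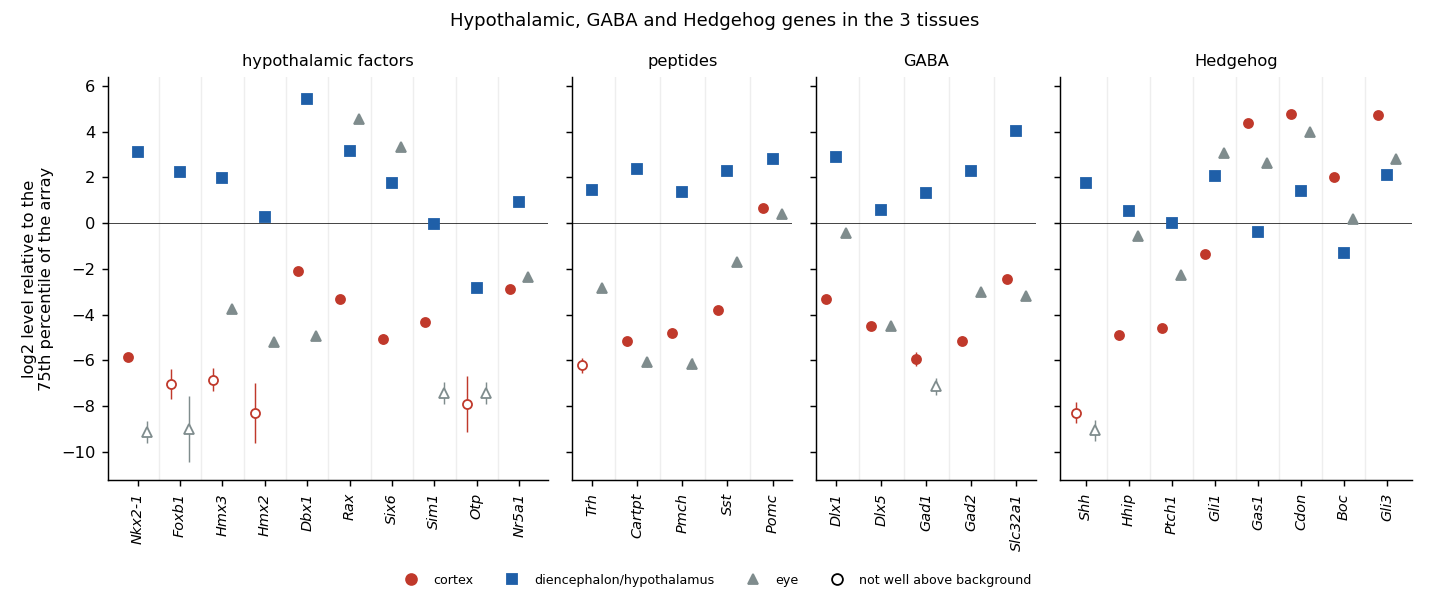
Log2 levels, relative to the 75th percentile of each array, of 28 genes in cortex (circles), diencephalon/hypothalamus (squares) and eye (triangles), with bars for the reading error and open symbols where a signal was not well above background. Squares lie above circles for the hypothalamic, peptide and GABA genes and for Shh, Hhip, Ptch1 and Gli1, and below them for Gas1, Cdon, Boc and Gli3.

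The Hedgehog pathway split by the role of its members. Shh, the ligand, read 1.76 in diencephalon/hypothalamus and was not well above background in cortex or eye, at least 264-fold higher than in cortex. Genes that the pathway switches on followed it. Hhip read -4.91 in cortex, 0.55 in diencephalon/hypothalamus and -0.55 in eye (44.2-fold), Ptch1 read -4.60, -0.01 and -2.26 (24.0-fold), and Gli1 read -1.34, 2.08 and 3.06 (a difference of -3.42). The co-receptors, which the pathway is known to turn down, lay the other way: Gas1 read 4.39 in cortex, -0.40 in diencephalon/hypothalamus and 2.63 in eye (27.7-fold, with 1.40 in log2 at the least different of its 3 probes), Cdon was 10.4-fold and Boc 10.2-fold higher in cortex. So did Gli3 (6.25-fold), the chief repressor, and Gli2 (4.59-fold). Smo (0.81) and Sufu (0.33) stayed under 2-fold. In all, 7 of 22 were higher in diencephalon/hypothalamus and 6 in cortex, so that the median of -0.14 hides the split.

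Among Wnt ligands 8 of 18 detected were higher in diencephalon/hypothalamus and 3 in cortex. Wnt4 (22.8-fold) and Wnt6 (15.3-fold) led on the diencephalon side, and both were brighter still in eye. Of 23 Wnt targets and antagonists 7 (30.4%) were higher in cortex and 4 (17.4%) in diencephalon/hypothalamus, against 8.43% and 15% of all detected genes. Axin2, a target that reads out the pathway, was 2.52-fold higher in cortex at its brighter probe and lower there by 0.57 at the other, so that its direction is uncertain. The antagonists Wif1 (5.51-fold) and Sfrp1 (4.71-fold) were higher in cortex, but the antagonist Dkk1 was 6.93-fold higher in diencephalon/hypothalamus, as was Lgr5, a receptor for R-spondins (at least 35.8-fold). Of 27 Fgf pathway genes 11 were higher in diencephalon/hypothalamus and 2 in cortex. Fgf10, a signal of the infundibulum, was at least 68.7-fold higher, and Fgf9 and Fgf18 were 9.09-fold and 7.65-fold higher. Fgf8 was 7.24-fold higher at the probe used, but its 3 probes ran from -4.72 to 2.24, and the receptor Fgfr3, 2.08-fold higher in cortex, had another probe at -0.13. Of the 22 Bmp pathway genes 5 (22.7%) were higher in diencephalon/hypothalamus and 3 (13.6%) in cortex, where all detected genes gave 15% and 8.43%. The antagonist Fst (11.2-fold) lay on the former side and Id4 (5.11-fold) on the latter.

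General neuronal genes were detected for all 25 members, and 16 were higher in diencephalon/hypothalamus and none in cortex, with a median of -1.54. Scg2, a secretogranin of dense-core vesicles, read -2.42 in cortex and 2.18 in diencephalon/hypothalamus (24.3-fold), and the neurofilament gene Nefl was 15.2-fold higher. Other members differed less: Dcx was 3.04-fold higher, the tubulin gene Tubb3 (-0.91) and the synaptic vesicle genes Syp (-0.76) and Vamp2 (-0.88) stayed under 2-fold, and Rbfox3 (-0.01) and Elavl2 (0.18) were equal within the reading error. Relative to genes of like brightness 22 of the 25 were higher in diencephalon/hypothalamus. Glutamate and GABA receptor subunits were higher in diencephalon/hypothalamus for 21 of 32 and in cortex for none, with a median of -1.52. With normexp correction 15 were (median -0.79), and in the authors' deposited table also 15 (median -0.93). Gria4 led at the probe used and read -1.78, 5.37 and -2.19 in cortex, diencephalon/hypothalamus and eye (142-fold), although its other probe differed by -2.35.

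Cell cycle genes lay the other way, by small and even amounts. Of 29 detected, 24 were higher in cortex and 1 in diencephalon/hypothalamus, with a median of 1.17, and the 24 ranged from 1.03 to 1.83 in log2. Mki67, the proliferation antigen, read 6.03 in cortex, 4.87 in diencephalon/hypothalamus and 5.21 in eye (2.23-fold), and the replication licensing gene Mcm5 was 3.24-fold higher. Cdkn1c, an inhibitor that takes cells out of the cycle and is itself imprinted, was the exception at 6.80-fold higher in diencephalon/hypothalamus. The count rests on the scale. Relative to genes of like brightness the median was 0.77 and 7 of 29 were higher in cortex, namely Aurkb, Ccne2, Cdc6, Mcm5, Tyms, Ccne1 and Mcm4, and after quantile normalization 11 were. The authors' deposited table gave 12. General progenitor genes did not follow the cell cycle genes: Nes (0.06), Vim (0.30) and Sox2 (0.36) stayed under 2-fold. Of 18 detected, 4 (22.2%) were higher in cortex and 3 (16.7%) in diencephalon/hypothalamus, against 8.43% and 15% of all detected genes.

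**Figure D4:**
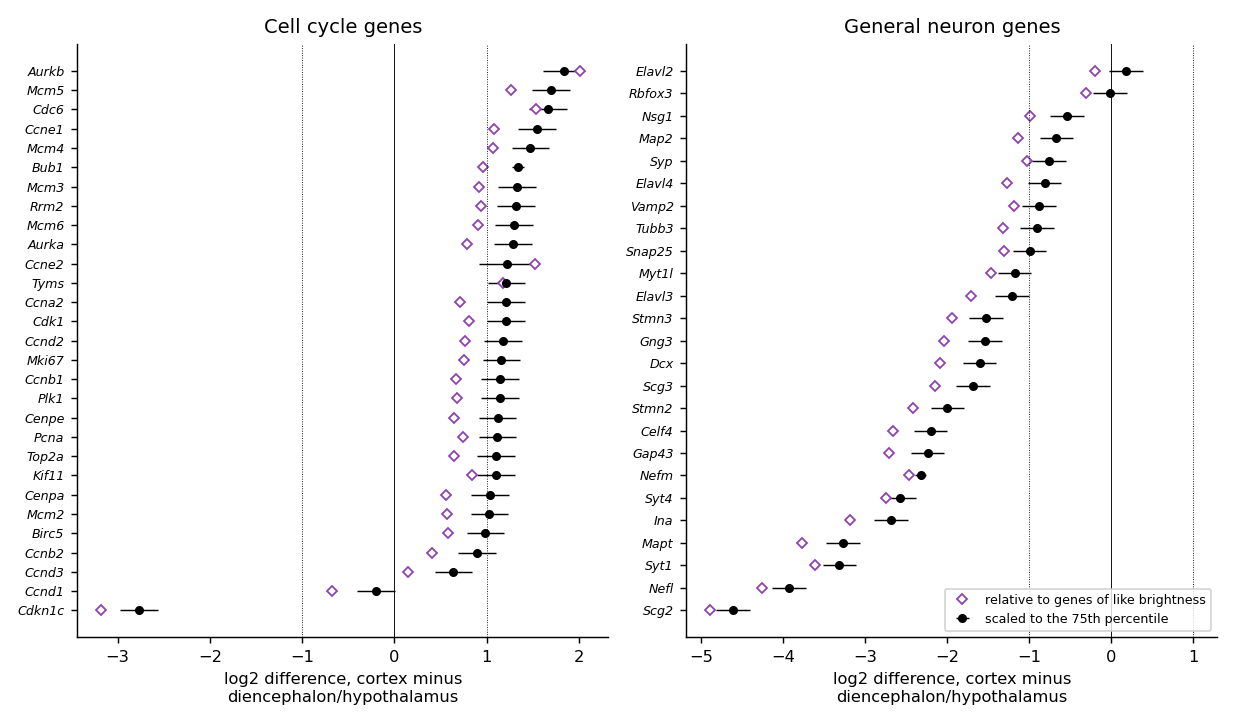
Log2 difference, cortex minus diencephalon/hypothalamus, on the x axis for 29 cell cycle genes (left) and 25 general neuron genes (right), with black points for the scaling to the 75th percentile, bars for the reading error and open diamonds for the difference relative to genes of like brightness; dotted lines mark 2-fold. All cell cycle genes but Ccnd1 and Cdkn1c keep a positive difference on both scales, but most diamonds lie under 2-fold.

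Because most cell cycle genes shared a direction, the 250 bases before their starts were read from the RefSeq promoter table (build GRCm38.p6), which holds 22 of the 29. The letters CCAAT, on either strand, stood in 17 of the 22 (77.3%), against 34.5% of all 27025 promoters of the table and 35.8% of those of detected genes. TTTGAA, the core of the cell cycle homology region, stood in 6 (27.3%), against 16.3% of the table and 11.6% of the promoters of detected genes. The window of Ccnb1 (chr13:100786487-100786736, minus strand; the gene 2.21-fold higher in cortex), of Cdk1 (chr10:69352913-69353162, minus strand; 2.31-fold) and of Ccnb2 (chr9:70421555-70421804, minus strand; 0.89 in log2, under the rule) are shown 5′ to 3′ with every CCAAT and TTTGAA, or its reverse complement, in capitals.
Ccnb1: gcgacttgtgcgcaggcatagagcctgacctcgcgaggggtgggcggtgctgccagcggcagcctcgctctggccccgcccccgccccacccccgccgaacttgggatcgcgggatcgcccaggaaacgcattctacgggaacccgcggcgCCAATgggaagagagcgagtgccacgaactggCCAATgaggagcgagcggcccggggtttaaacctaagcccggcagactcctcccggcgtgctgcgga
Cdk1: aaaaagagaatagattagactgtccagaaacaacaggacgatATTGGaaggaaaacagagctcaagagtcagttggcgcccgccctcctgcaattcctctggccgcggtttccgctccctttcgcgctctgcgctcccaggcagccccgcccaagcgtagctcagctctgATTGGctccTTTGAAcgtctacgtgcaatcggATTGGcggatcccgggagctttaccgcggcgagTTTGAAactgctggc
Ccnb2: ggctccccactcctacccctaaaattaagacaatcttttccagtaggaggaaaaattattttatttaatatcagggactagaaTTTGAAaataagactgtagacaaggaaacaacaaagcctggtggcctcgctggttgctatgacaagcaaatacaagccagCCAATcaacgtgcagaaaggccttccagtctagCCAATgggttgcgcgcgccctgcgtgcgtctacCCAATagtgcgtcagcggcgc
Ccnb1 holds 2 CCAAT matches and no TTTGAA, Cdk1 holds 3 and 2, and Ccnb2 holds 3 and 1. In Cdk1 the TTTGAA nearest the start lies 15 to 10 bases before it. Among genes at least 4-fold higher in cortex CCAAT stood in 35.1% of 259 promoters, and among those at least 4-fold higher in diencephalon/hypothalamus in 32.7% of 826. The homeodomain core TAATTA stood in 5.79% and 3.39% of those promoters, against 4.90% of the table and 3.05% of the promoters of detected genes, and the E-box CAGATG in 18.5% and 12.7% against 14.5% and 11.5%. The genes higher in diencephalon/hypothalamus thus lay below the table but above the detected genes for both motifs. A match is a run of letters and was not tested as a binding site.

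Imprinted genes, which are read from 1 parental copy and many of which act on growth, were higher in diencephalon/hypothalamus for 12 of 20 and in cortex for none, with a median of -1.44. Dlk1 read 2.37 in cortex, 7.03 in diencephalon/hypothalamus and 3.64 in eye (25.3-fold), and Meg3, a non-coding RNA expressed from the other parental copy of the same cluster on chromosome 12, read 2.54, 6.16 and 3.94 (12.3-fold). Their probes lie 111 kb apart. Neighbours on chromosome 7, also chosen after their values were seen, shared a direction, with Zim1 27.1-fold and Peg3 8.99-fold, and Magel2 13.8-fold and Ndn 3.66-fold higher in diencephalon/hypothalamus. The growth factor gene Igf2 was 2.44-fold higher, while H19 (-0.60), Plagl1 (0.25) and Igf2r (0.35) stayed under 2-fold at the probes used. The 7 probes of H19 reached -1.10.

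Markers of tissues next to the dissected ones were present, mostly on the diencephalon side. Of 14 detected pituitary genes 12 were higher in diencephalon/hypothalamus. Pitx1 and Lhx3, which define Rathke's pouch, read 2.71 and 1.98 there and were not well above background in cortex, at least 508-fold and at least 308-fold. Summed over the list the log2 level was 5.95 in cortex and 6.17 in diencephalon/hypothalamus, and such a sum is carried by the probes with the strongest signal, so that it does not measure how much pituitary tissue was present. Eya1 differed by 0.66 towards cortex. The hormone genes Gh and Prl were not well above background on either brain array. The pituitary list also holds Isl1 and Pomc, which the hypothalamus makes too. Of 14 detected genes of surface epithelium and cartilage 10 were higher in diencephalon/hypothalamus and none in cortex, with Krt5 at 58.5-fold, Krt15 at least 93.2-fold, Cdh1 at least 36.7-fold and Epcam at 9.07-fold. Krt5 read 1.96 there and 2.68 in eye, and the summed level of the list was 4.52 in cortex, 5.36 in diencephalon/hypothalamus and 6.72 in eye. Of 23 mesenchyme genes 9 were higher in diencephalon/hypothalamus, led by Twist1 at 5.27-fold, and Col1a1 was 2.14-fold higher, but the summed level of that list was 6.87 in cortex, 6.83 in diencephalon/hypothalamus and 8.05 in eye. What part these cells had in the Wnt and Irx genes above was not tested.

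Some erythroid and few endothelial genes passed 2-fold, all on the cortex side. Of 13 erythroid genes 6 were higher in cortex (10 after scaling to the median) and none in diencephalon/hypothalamus (median 0.99), with Epb42 at 3.85-fold, but the alpha globin Hba-a2, whose probe may also read its near-identical copy Hba-a1, differed by 0.08. Relative to genes of like brightness 4 of the 13 remained above 2-fold, and the median was 0.65. Of 14 endothelial genes 2, Cdh5 and Emcn, were higher in cortex (10 after scaling to the median), which is 14.3% against 8.43% of all detected genes, with a median of 0.77, and microglial genes were near equal, with 1 of 16 past 2-fold. Dct, a melanin-synthesis gene, read 3.98 in cortex, -2.66 in diencephalon/hypothalamus and 5.68 in eye (99.5-fold), although the pigment genes Tyr (0.14) and Mitf (0.19) did not differ by 2-fold between the brain tissues and Tyrp1 was not well above background in either. Of the midbrain and hindbrain list 8 of 18 were higher in diencephalon/hypothalamus (5 of 17 with normexp correction) and 1 in cortex, led by the floor plate factor Foxa1 (308-fold), but En1 and Atoh1 were not well above background in either tissue. Among Hox genes, which mark the hindbrain and trunk, 15 of 27 were not detected and 8 met the 2-fold rule, of which 3, Hoxa3 and Hoxd8 among them, did with the cortex at its floor. With normexp correction, and in the authors' deposited table, 2 Hox genes met it.

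**Figure D5:**
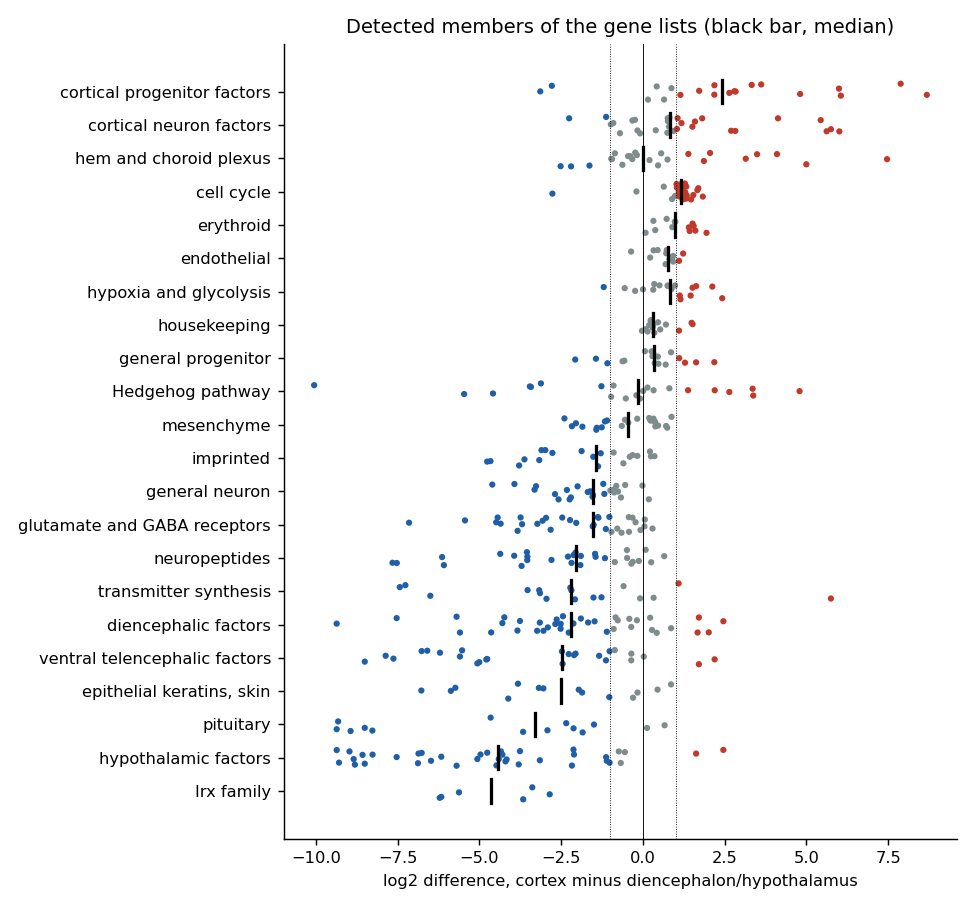
Each point is a detected member of a gene list, placed by its log2 difference, cortex minus diencephalon/hypothalamus, with a black bar for the median of the list and dotted lines at 2-fold. Medians run from 2.42 for cortical progenitor factors to -4.64 for the Irx family; the Hedgehog and hem lists spread to both sides of 0, and values of genes not well above background on the dim array are as measured.

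The eye separated the genes further. Of the 459 genes at least 4-fold higher in cortex, the eye was also at least 4-fold below the cortex for 295 and within 2-fold of it for 74. Of the 1477 at least 4-fold higher in diencephalon/hypothalamus, it was at least 4-fold below that tissue for 530, within 2-fold for 485 and at least 2-fold above for 194. Emx1, Tbr1 and Neurod6 belong to the first kind, Rspo1 to the second, Nkx2-1, Foxb1 and Shh to the third, and Rax and Irx1 to the last.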

How the data were processed

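RNA pools of cortex, diencephalon with hypothalamus and eye were each hybridized to 1 one-colour Agilent array. The authors deposited spot intensities read with Agilent Feature Extraction 10.7.3.1, background-subtracted and detrended within each array, with probe positions on mm9, per the file headers; the submitters' processing notes name version 9.1 and limma. The authors also deposited a table of log2 values of 55681 probes (median 6.37 for cortex, 6.36 for diencephalon/hypothalamus), close to quantile normalized; its background step is not given in the sources used here. Here, log2 of the intensity was taken relative to the 75th percentile of 59305 non-control spots, without outlier spots (136 on the cortex array and 211 on the other; 0 were saturated). Spots of 1 probe were averaged (432 repeated probes, median SD 0.085 in cortex and 0.062 in diencephalon/hypothalamus), and a gene was read from its brightest probe over the 8 arrays. Of the probes, 28354 were named through their accession, 3189 through a current symbol and 271 through a synonym in the RefSeq gene table, and 23867 kept the name in the file. With 1 array a tissue no test was run; calls rest on size alone.

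Named genes are the 15 with the largest difference on each side, up to 8 on each side of each list, and list members under 2-fold or below background; the neighbours, the probes and a few others were chosen after their values were seen. Some genes that the rule names are counted in their lists but not reported here. Members and lists (44, with 11 added) were chosen with earlier results of these data known. Alternatives were median scaling, quantile normalization, normexp (offset 50), the deposited table, other filters on dim probes, the mean over probes, and outlier spots kept. The scripts were tested on simulated data. Python 3.11.15, numpy 2.4.6, pandas 2.3.3, R 4.3.3 and limma 3.58.1 were used.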

Additional observations from a re-analysis of the deposited data

How the results depend on the processing

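Leaving out a replicate was not possible, and no paired analysis was possible, because each tissue has 1 array. The counts of 2227 and 3970 genes at 2-fold, and of 459 and 1477 at 4-fold, depended on scaling, background and dim genes. Scaling to the array median gave 5087 and 717 genes higher in cortex at 2-fold and 4-fold. With normexp background correction 1676 genes were higher in diencephalon/hypothalamus at 2-fold, and 147 and 554 were higher in cortex and in diencephalon/hypothalamus at 4-fold. The authors' deposited table gave 2026, 217 and 651 for the same 3 counts, and requiring both arrays to be well above background gave 2155, 261 and 705. The other counts, and those with quantile normalization, without a filter, with the mean over probes and with outlier spots kept, stayed within 1.5 times. Holding the dim array at its floor and taking differences relative to genes of like brightness were added after the data had been seen. Of 214 named genes 163 were called. None of the 163 turned its direction under the 10 alternatives, 121 kept their call under all of them, and 24 lost it only where both arrays had to be well above background. The other 18 were Aurkb, Axin2, Ccnb1, Ccne2, Cdh5, Cdk1, Fezf2, Fgfr3, Mki67, Slc6a4 and Wnt3a on the cortex side, and Col1a1, Gbx2, Hoxd8, Igf2, Lhx6, Pou3f2 and Slc17a6 on the other. By over 1.5-fold, 71 of the 163 differences were smaller with normexp correction and 61 in the deposited table. Of the called named genes with 2 or more detected probes, 45 of 52 had every probe past 2-fold in the same direction, and 3 (Axin2, Fgf8 and Fgfr3) had probes of opposite sign. Over all called genes with 2 or more detected probes the sign was shared in 86.1%. Signal over background limits the dim side: 1815 of the differences towards diencephalon/hypothalamus have a cortex signal with only an upper bound.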

Other observations

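Axon guidance genes were more often higher in diencephalon/hypothalamus. Of 51 detected ephrins, Eph receptors, netrins, slits, semaphorins and their receptors 17 (33.3%) were higher in diencephalon/hypothalamus and 6 (11.8%) in cortex. All detected genes gave 15% and 8.43%, so that the cortex count was near the share of all genes. The median difference was -0.35, and after scaling to the median 11 were higher in cortex. Ntn1 (netrin-1), a ligand of ventral midline cells, read -3.22 in cortex, 2.08 in diencephalon/hypothalamus and -0.19 in eye, 39.3-fold higher in diencephalon/hypothalamus, and its receptor gene Unc5c was 4.99-fold higher there. Its other receptor gene Dcc (-0.28) stayed under 2-fold at the probe used, but another of its 3 probes gave -1.44. Spon1 (F-spondin), a matrix protein of the floor plate, was 77.0-fold higher in diencephalon/hypothalamus. Epha4, an Eph receptor, read 4.49 in cortex, 1.85 in diencephalon/hypothalamus and 1.52 in eye, 6.26-fold higher in cortex. The ephrin genes Efnb1 and Efnb2 were 3.81-fold and 3.83-fold higher in cortex, while Efna5 was 4.81-fold higher in diencephalon/hypothalamus. Of 20 potassium channel genes, a list added after the data had been seen, 12 (60%) were higher in diencephalon/hypothalamus and 2 (10%) in cortex. Among the 12 were Kcnmb2 at -3.46 (-1.14 at its other probe) and Kcnh2 at -2.90. Cadherins were higher in diencephalon/hypothalamus for 9 of 25 (36%, and 5 after scaling to the median) and in cortex for 2 (8%). Pcdh8 and Cdh22 were 9.83-fold and 4.89-fold higher in diencephalon/hypothalamus, and Pcdh19 was 4.63-fold higher in cortex.

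Glycolysis and hypoxia genes were higher in cortex for 7 of 18 and in diencephalon/hypothalamus for 1, with a median of 0.82. Relative to genes of like brightness the median was 0.53 and 5 passed, and after scaling to the median 11 did. Hk2 (hexokinase 2) read 3.19, 0.76 and 1.58 in cortex, diencephalon/hypothalamus and eye, 5.38-fold higher in cortex. Pdk1, a kinase that holds pyruvate back from the mitochondria, was 4.36-fold and Pgk1 2.87-fold higher, whereas Vegfa read 1.60 in both brain tissues. Aldoc (aldolase C), which is not on that list, was among the 15 genes with the largest difference on the cortex side, at 5.44, -0.29 and 1.88, or 53.1-fold. The same 15 held Serpina6, the corticosteroid-binding globulin gene, at least 47.2-fold higher, and Rbm20, a splicing regulator known from heart muscle, 31.2-fold higher. Genes of retinoic acid synthesis and binding went the other way, 6 of 17 higher in diencephalon/hypothalamus and 1 in cortex. Aldh1a3, which makes retinoic acid, read -6.09 in cortex, -2.24 in diencephalon/hypothalamus and 4.18 in eye, 14.4-fold between the brain tissues. Of 21 Notch pathway genes 2 (9.52%) were higher in cortex and 3 (14.3%) in diencephalon/hypothalamus, near the 8.43% and 15% of all detected genes. Hes5 (0.46) stayed under 2-fold.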
